A study of Mus musculus with 9 samples.

Results

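Cardiac fibroblasts are represented here by 10 marker genes, chosen by symbol: Pdgfra, Ddr2, Thy1, Fap, Meox1, Dcn, Lum, Dpt, Mfap5 and Gsn. All 10 were among the 14479 genes with values in every library, and all 10 were among the 13249 genes tested, those averaging 1 FPKM or more across the 9 libraries. The libraries were made from total RNA of the heart ventricle apex of neonatal CD-1 mice, an outbred strain, operated on at postnatal day 1 and killed at postnatal day 2. A sham group had sham surgery, a resection group had the ventricular apex cut away, and the vagotomy group had the same resection together with cutting of the left vagus nerve. Each group held 3 libraries, with no genotype or transgene named. The labels do not say whether a library is 1 animal or a pool, so the p-values measure the spread between these libraries, which may be partly technical.

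Cardiac fibroblasts are the matrix-producing cells of the heart interstitium. They are recognised by the receptors Pdgfra and Ddr2, by surface proteins such as Thy1, and by the collagens, proteoglycans and microfibril proteins that they secrete. After injury, resident fibroblasts can become activated, and then express contractile and matrix-remodelling genes such as Tagln, Tnc, Postn and Cthrc1. The newborn mouse heart can regrow a resected apex, and the vagus nerve carries its parasympathetic supply. The comparisons ask how these markers stood 1 day after resection, and how they stood when the left vagus had also been cut.

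Between resection and sham, none of the 10 markers passed the test. Between resection with vagotomy and sham, the microfibril gene Mfap5 fell from 61.1 ± 2.43 to 22.6 ± 5.78 FPKM and the actin-severing gene Gsn rose from 89.7 ± 9.96 to 242.9 ± 94.9 FPKM (SD, n = 3 each). Of all tested genes 10.1% were called in that comparison. The Gsn call was lost without any 1 sham or vagotomy library, and that of Mfap5 without the second or the third sham library. The other 8 did not pass. Lum and Fap were lower in every vagotomy library than in any sham library, as were 17% of all tested genes. Pdgfra was higher in every one, as were 19.7%. FPKM is a fragment count scaled to transcript length and to the library's mapped fragments, so levels may be compared between genes, but the reads behind a value, and thus its depth, are not known. The change of a gene is the difference of its mean log2(FPKM + 1), which understates the change of low genes. Each test used limma across all 13249 genes, with p-values adjusted over all of them and a threshold of 0.05. In these bulk libraries, fewer fibroblasts and less RNA per fibroblast cannot be told apart.

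The libraries were similar in overall level, with a median of 7.52 to 8.29 FPKM over the listed genes, and each correlated with the others of its group at a mean Pearson r of 0.881 to 0.943 across genes. The third vagotomy library was at an end of its group for every marker, with the lowest value of Dcn, Lum, Dpt, Mfap5, Fap, Thy1 and Meox1 and the highest of Gsn, Pdgfra and Ddr2. Libraries also differed by the GC content of transcripts. Genes above 55% GC deviated from their own mean by a median log2 value of 0.14 to 0.30 in the 3 vagotomy libraries, against 0.26, -0.31 and -0.44 in the sham libraries and 0.35, -0.43 and -0.18 in the resection libraries. Values with that trend removed are given for the markers and gene lists whose calls they change. The abundant cardiomyocyte genes Myh6 and Actc1 are listed at 0 in all 3 vagotomy libraries, where the authors' deposited table marks them as failed estimates (HIDATA), so they were not read as losses. What these failed estimates did to the FPKM of other genes in those libraries, and so to every comparison with vagotomy, was not tested; Mfap5 and Gsn passed between vagotomy and sham under upper-quartile and quantile scaling too.

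In the sham libraries Dcn was the most abundant marker at 290.5 ± 15.0 FPKM, followed by Gsn at 89.7 ± 9.96 and Mfap5 at 61.1 ± 2.43. Lum at 46.5 ± 7.94 and Dpt at 42.1 ± 6.97 FPKM came next, and their ranges overlapped. Thy1 at 24.1 ± 6.44 and Pdgfra at 11.6 ± 1.53 FPKM stood apart from their neighbours. Ddr2 at 7.45 ± 1.97, Meox1 at 6.85 ± 1.56 and Fap at 5.68 ± 0.871 FPKM formed the low end, each overlapping the next. So the secreted matrix genes and Gsn were above every surface and nuclear marker. All 10 markers were present in all 9 libraries, the lowest single value being 1.42 FPKM of Fap. Other loci of the authors' deposited tables overlapped those of Pdgfra, Ddr2 and Meox1, and were at no more than 0.539 FPKM in any group. Such overlap was looked up for the markers only. Of the other genes described below, Tagln, Loxl2, Pcolce, Tnc and Ogn have deposited loci reaching past the annotated gene, and Ogn and Aspn share one. What this did to their values was not tested. Markers of the other cells of the apex were present as well: the cardiomyocyte list without Myh6 and Actc1 summed to between 12713 and 14627 FPKM in sham, the endothelial list to between 316 and 449 FPKM, and the mural cell list to between 204 and 244 FPKM.

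**Figure D1:**
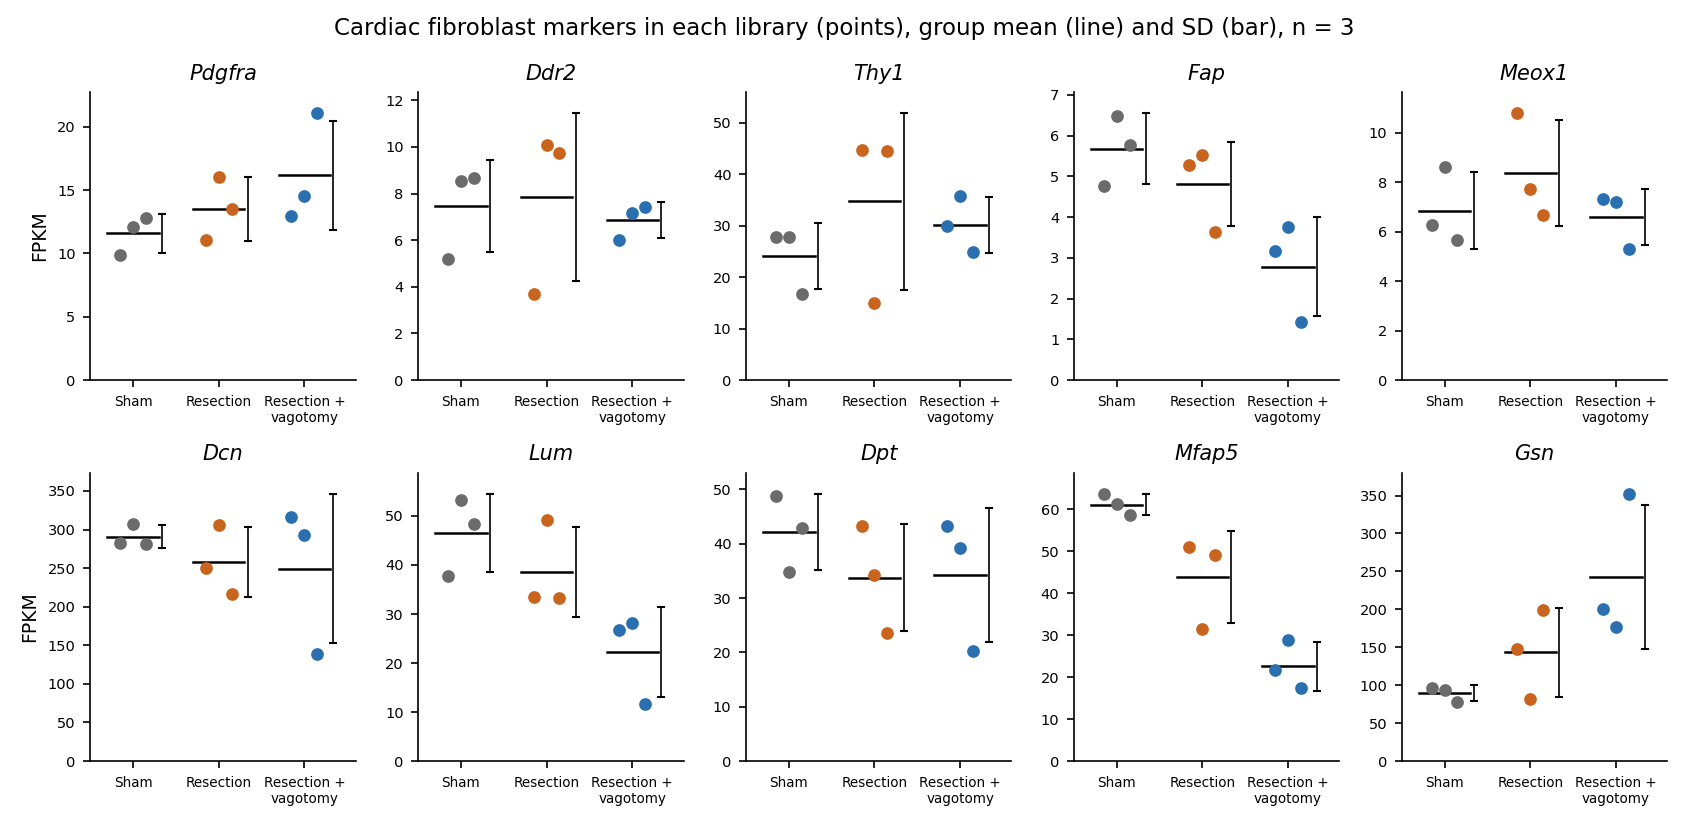
FPKM (vertical axes, each from 0) of the 10 fibroblast markers in each library of the 3 groups; points are libraries, horizontal lines group means and bars 1 SD (n = 3). The 3 vagotomy libraries of Mfap5, between 17.3 and 28.8 FPKM, lie below all sham and resection libraries, and those of Gsn, between 176 and 352 FPKM, lie above all sham libraries.

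Pdgfra encodes the receptor for platelet-derived growth factors that marks fibroblasts and their precursors. Its level was 9.86, 12.1 and 12.8 FPKM in the sham libraries, 11.03, 16.0 and 13.5 after resection, and 12.9, 14.5 and 21.1 after resection with vagotomy. The vagotomy libraries all lay above the sham libraries, though the lowest of them exceeded the highest sham library by little, and the resection libraries overlapped both. The log2 change was 0.20 ± 0.26 (SE) from sham to resection (adjusted p = 1) and 0.43 ± 0.26 from sham to vagotomy (adjusted p = 0.291). Of the other PDGF genes, 4 were tested and 0 passed in any of the 3 comparisons. Among them Pdgfrb, the receptor of mural cells, was at 26.8, 19.2 and 14.7 FPKM in sham, 36.1, 24.1 and 28.3 after resection, and 27.3, 29.3 and 25.9 after vagotomy.

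Ddr2 encodes a receptor tyrosine kinase that binds fibrillar collagen. It was at 5.18, 8.53 and 8.65 FPKM in sham, 3.67, 10.1 and 9.75 after resection, and 6.005, 7.17 and 7.44 after resection with vagotomy. The first library of each group was the lowest, and the groups overlapped throughout. The log2 change was -0.01 ± 0.35 from sham to resection and -0.08 ± 0.35 from sham to vagotomy, with 95% intervals of -0.78 to 0.76 and -0.85 to 0.69, and the sign of both turned under several alternative settings. Of the other collagen receptors, 5 were tested and 1 rose, against 5.81% of all tested genes called higher between vagotomy and sham. Mrc2, an endocytic collagen receptor, went from 9.01, 4.53 and 3.79 FPKM in sham to 15.8, 14.1 and 14.0 after vagotomy (log2 change 1.28 ± 0.35, adjusted p = 0.0463). Mrc2 also passed against resection with the GC trend removed (0.72, adjusted p = 0.0445). The call against sham was lost in 8 of 19 alternative settings, among them both other scalings and the omission of any 1 vagotomy library.

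Thy1 encodes a GPI-anchored surface glycoprotein shared by fibroblasts, neurons and T cells. It was at 27.8, 27.8 and 16.6 FPKM in sham, 44.6, 14.9 and 44.5 after resection, and 29.9, 35.8 and 24.9 after resection with vagotomy. The resection group was the most scattered, with its second library lower than every other library of the series. No comparison passed, the log2 change being 0.39 ± 0.41 from sham to resection (adjusted p = 1) and 0.34 ± 0.41 from sham to vagotomy (adjusted p = 0.619). With the GC trend removed the second of these was -0.03, so its sign was not settled. The 5 T cell markers had no row in the matrix, and in the authors' deposited tables their group values ran from 0 to 0.713 FPKM.

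Fap encodes a membrane-bound serine protease known from activated stroma. Its level was 4.76, 6.49 and 5.78 FPKM in sham, 5.29, 5.54 and 3.63 after resection, and 3.16, 3.76 and 1.42 after resection with vagotomy. All 3 vagotomy libraries lay below all 3 sham libraries. The log2 change from sham to vagotomy was -0.87 ± 0.30 (adjusted p = 0.0842), and with the GC trend removed it was -0.52 (adjusted p = 0.256). Between vagotomy and resection the log2 change was -0.66 ± 0.30 (adjusted p = 0.204), where the lowest resection library overlapped the vagotomy group.

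Meox1, the one transcription factor among the markers, is a homeobox gene. It was at 6.29, 8.61 and 5.65 FPKM in sham, 10.8, 7.72 and 6.67 after resection, and 7.30, 7.19 and 5.29 after resection with vagotomy. The 3 groups overlapped, and the log2 change was 0.25 ± 0.26 from sham to resection and -0.29 ± 0.26 from resection to vagotomy, neither past the test. Of 8 further fibroblast transcription factors, 6 were tested and 0 passed in any comparison. Tbx18, a T-box factor of the epicardium and its descendants, was the nearest, at 6.79, 7.88 and 12.3 FPKM in sham, 7.83, 14.1 and 7.06 after resection, and 2.85, 4.02 and 5.56 after vagotomy. Its vagotomy libraries were below all others, with a log2 change of -1.03 ± 0.33 against resection (adjusted p = 0.102, and 0.046 with the GC trend removed). Twist1, a basic helix-loop-helix factor of mesenchyme, had a log2 change of -0.54 ± 0.32 against resection (adjusted p = 0.324, and 0.0186 with the trend removed). Against sham its change was -0.15, and -0.62 with the trend removed (adjusted p = 0.0423). Tcf21, the most abundant of the 6, changed little, with means of 32.6 FPKM in sham, 31.8 after resection and 29.6 after vagotomy. Twist2 had its highest mean after vagotomy, at 1.18, 1.24 and 1.72 FPKM in the same order. Prrx1 at 8.24, 7.81 and 5.34 FPKM and Meox2 at 4.06, 4.25 and 3.06 had their lowest there. Tcf21, Twist2, Prrx1 and Meox2 overlapped between groups and did not pass with the trend removed either.

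Dcn encodes decorin, a small leucine-rich proteoglycan that binds collagen fibrils. It lies at chr10:97479609-97518143 (GRCm38, plus strand), and Lum, encoding the related lumican, is its neighbour at chr10:97565128-97572703 on the same strand. The gap of 46984 bases between them holds 0 annotated genes. Dcn was at 283, 308 and 281 FPKM in sham, 250, 307 and 217 after resection, and 316, 293 and 138 after resection with vagotomy. All libraries but the third of the vagotomy group, the lowest by far, lay at 217 FPKM or above. The log2 change was -0.18 ± 0.34 from sham to resection (adjusted p = 1) and -0.31 ± 0.34 from sham to vagotomy (adjusted p = 0.585), and without that library the latter was 0.07.

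Lum was at 37.7, 53.3 and 48.4 FPKM in sham, 33.5, 49.3 and 33.2 after resection, and 26.7, 28.2 and 11.6 after resection with vagotomy. Every vagotomy library was below every library of the other groups. The log2 change was -1.11 ± 0.35 against sham (adjusted p = 0.0658) and -0.85 ± 0.35 against resection (adjusted p = 0.171), so Lum did not pass in this fit. With the GC trend removed the change against sham was -0.78 (adjusted p = 0.109). In the authors' deposited table Lum did pass between vagotomy and resection, at 22.1 against 38.6 FPKM (q = 0.0123). The mean of Lum after vagotomy was 22.2 ± 9.16 FPKM against 46.5 ± 7.94 in sham, and that of its neighbour Dcn 249.2 ± 96.5 against 290.5 ± 15.0. The difference between the changes of Dcn and Lum was not tested.

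Of the other small leucine-rich proteoglycans, 5 were tested and 1 fell, against 4.26% of all tested genes called lower between vagotomy and sham. Ogn, encoding osteoglycin, went from 32.2, 68.8 and 70.4 FPKM in sham to 20.8, 23.3 and 6.92 after vagotomy (log2 change -1.77 ± 0.49, adjusted p = 0.0466). With the GC trend removed it was -1.14 (adjusted p = 0.0517), and the call was lost in 7 of 19 settings, including the omission of any 1 vagotomy library. Bgn, encoding biglycan, was at 253, 266 and 233 FPKM in sham, 406, 313 and 359 after resection, and 225, 249 and 151 after vagotomy. Its resection libraries were the highest of the series, but no comparison passed (log2 change of vagotomy against resection -0.81 ± 0.28, adjusted p = 0.121, and 0.0377 with the GC trend removed).

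Dpt encodes dermatopontin, a small matrix protein that interacts with decorin. It was at 48.7, 34.8 and 42.8 FPKM in sham, 43.3, 34.3 and 23.6 after resection, and 43.2, 39.2 and 20.2 after resection with vagotomy. In the resection and vagotomy groups alike the third library was the lowest, and all groups overlapped. The log2 change was -0.34 ± 0.34 from sham to resection (adjusted p = 1), and resection and vagotomy differed by -0.01 with a 95% interval of -0.76 to 0.74.

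Mfap5 encodes a microfibril-associated glycoprotein that binds fibrillins, at chr6:122505845-122529290 (GRCm38, plus strand). It was at 63.5, 61.2 and 58.7 FPKM in sham, 51.0, 31.4 and 49.2 after resection, and 21.7, 28.8 and 17.3 after resection with vagotomy. The 3 groups did not overlap in any comparison: resection lay below sham, and vagotomy below both. From sham to vagotomy it fell by 1.42 ± 0.28 on the log2 scale (95% interval -2.04 to -0.81, adjusted p = 0.0166), to 0.372 of its sham level. Against resection the log2 change was -0.92 ± 0.28 (adjusted p = 0.0854), and resection against sham -0.50 ± 0.28 (adjusted p = 1). It was also the one marker past the F-test for any difference among the 3 groups (adjusted p = 0.0333), which 781 of all tested genes passed, or 5.89%.

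The fall of Mfap5 was much the same with the GC trend removed (log2 change -1.33, adjusted p = 0.0118), and it passed in 17 of 19 alternative settings. It did not pass without the second sham library (adjusted p = 0.0806) or the third (adjusted p = 0.0648), with the log2 change then at -1.42 and -1.45. In the authors' deposited table it passed between vagotomy and resection as well, at 22.5 against 43.7 FPKM (q = 0.0149). Of 8 other elastic microfibril genes, all tested, 0 fell and 1 rose, against 5.81% of all tested genes called higher between vagotomy and sham. The riser was Ltbp2, a latent TGF-beta binding protein family member that binds microfibrils, at 0.996, 0.876 and 0.406 FPKM in sham, 3.48, 1.82 and 10.5 after resection, and 3.38, 6.48 and 12.5 after vagotomy (log2 change against sham 2.13 ± 0.52, adjusted p = 0.0332). It passed in 12 of 18 settings. Ltbp2 was lost without any 1 of the sham libraries, without vagotomy library 2 (adjusted p = 0.0704) or 3 (adjusted p = 0.0952), and with a pseudocount of 5, where the log2 change was 1.05; over all settings it ran from 1.05 to 3.02. Fbn2, encoding a fibrillin, was at 15.1 to 17.1 FPKM in sham and 20.4 to 36.4 after vagotomy (log2 change 0.64 ± 0.28, adjusted p = 0.156).

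Gsn encodes gelsolin, which severs and caps actin filaments and is abundant in cardiac fibroblasts but also made by smooth muscle, macrophages and other cells. It lies at chr2:35256380-35307892 (GRCm38, plus strand), and the authors' locus begins inside that span, at 35279663. RefSeq gives 3 promoter windows for Gsn, and the one upstream of the start within the authors' locus is printed here, since Gsn is the marker that rose. It is the stretch chr2:35282130-35282379 on the plus strand (GRCm38.p6), 250 bases ending just before the start, all in lower case because neither motif searched was found in it.
Gsn: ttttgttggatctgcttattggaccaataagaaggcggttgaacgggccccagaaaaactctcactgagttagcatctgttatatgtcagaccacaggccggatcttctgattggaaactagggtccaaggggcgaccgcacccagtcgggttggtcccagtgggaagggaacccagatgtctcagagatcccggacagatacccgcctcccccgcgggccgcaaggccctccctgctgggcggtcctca
Its GC content is 57.6%, against a mean of 53.2% over all 32851 RefSeq promoter windows. The motifs TATAAA and TGANTCA, each sought on both strands, occur in 12.4% and 6.75% of those windows. Of the 10 markers 4 had a window, and of their 6 windows only 1, of Ddr2, held a match, to TATAAA.

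The level of Gsn was 96.4, 94.3 and 78.2 FPKM in sham, 148, 82.3 and 199 after resection, and 201, 176 and 352 after resection with vagotomy. The vagotomy libraries all lay above the sham libraries, the resection group overlapped both, and the third vagotomy library was the highest of the series. Gsn rose by 1.37 ± 0.38 on the log2 scale from sham to vagotomy (95% interval 0.53 to 2.20, 2.58-fold on the log2(FPKM + 1) scale, adjusted p = 0.0461). From sham to resection the log2 change was 0.59 ± 0.38 (adjusted p = 1), and from resection to vagotomy 0.78 ± 0.38 (adjusted p = 0.231). The call stands at the edge of the threshold. It passed in 11 of 19 alternative settings, and it was lost with the GC trend removed (log2 change 1.00, adjusted p = 0.0597) and without any 1 of the 6 sham and vagotomy libraries, where adjusted p ran from 0.0618 to 0.156.

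Gsn has the highest transcript GC content of the 10 markers, 57.1%. Of the macrophage markers 5 of 10 rose from sham to vagotomy, against 5.81% of all tested genes called higher. The list summed to between 56.7 and 76.5 FPKM in sham, 160 and 302 after resection, and 205 and 274 after vagotomy, and none of the 10 was at 0 in any library. Lyz2 went from 27.2 ± 11.6 FPKM in sham to 131.1 ± 23.3 after vagotomy and Cd14 from 1.92 ± 0.136 to 40.7 ± 10.9. C1qa, C1qb, C1qc, Cd68 and Mrc1 did not pass. Mrc1 was at 8.66 ± 1.78 FPKM in sham and 7.44 ± 0.889 after vagotomy. The part of macrophages in the Gsn result was not tested. Of the other gelsolin family genes, 3 were tested and 1 rose, against the same share of all tested genes called higher, 5.81%. Capg, a capping protein prominent in macrophages, was at 7.34, 4.03 and 4.47 FPKM in sham, 41.0, 15.7 and 16.9 after resection, and 19.3, 25.2 and 26.4 after vagotomy (log2 change of vagotomy against sham 2.00 ± 0.37, adjusted p = 0.0138). Capg also passed from sham to resection with the GC trend removed (1.82, adjusted p = 0.0052). Without the second or the third sham library Capg did not pass (highest adjusted p = 0.0756). Flii and Svil, the remaining family members tested, had log2 changes of 0.23 and 0.01 against sham and did not pass.

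Across the 10 markers, 0 rose and 0 fell between resection and sham by limma, where 0.294% of all tested genes were called, and 0 reached an unadjusted p under 0.05, against 5.89%. Between vagotomy and resection again 0 rose and 0 fell, against 3.52% of all tested genes, while 3 markers had an unadjusted p under 0.05, against 24.2%. No label pairs the libraries. With the replicate number as a block, 1277 genes were called in that comparison in place of 466, still with 0 of the markers. The authors' deposited table called 2 markers there, Lum and Mfap5, against 17.1% of the genes it tested, and 0 between resection and sham, against 6.12%. Between vagotomy and sham 1 rose, against 5.81% of all tested genes called higher, and 1 fell, against 4.26% called lower, while 4 had an unadjusted p under 0.05, against 30.1%. A count of 2 of 10 lies near what 10.1% of all genes would give.

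Counts of groups that do not overlap read the same way. Between resection and sham 1 marker, Mfap5, was lower in every library, against 4.45% of all tested genes, and 0 were higher, against 6.36%. Between vagotomy and resection 2 were lower, Lum and Mfap5, against 12.2%, and 0 higher, against 14%. Between vagotomy and sham 3 were lower, Lum, Fap and Mfap5, against 17%, and 2 higher, Pdgfra and Gsn, against 19.7%. An exact permutation test of 3 against 3 libraries cannot go below 0.1, so such a split is no call by itself. The median log2 change of the 10 markers was -0.10, -0.10 and -0.19 in the 3 comparisons, beside -0.01, 0.02 and 0.03 for all tested genes. These comparisons share libraries, so their values are not independent of each other.

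**Figure D2:**
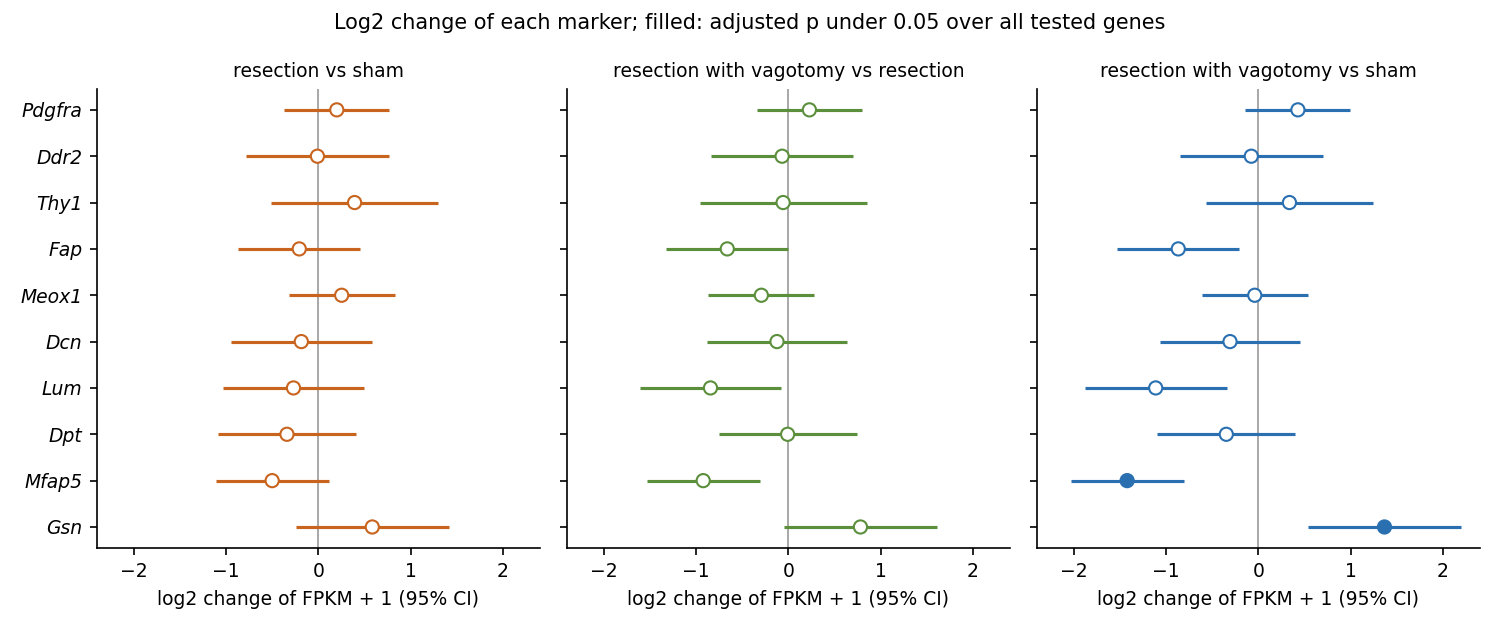
Log2 change of FPKM + 1 (horizontal axis) of each fibroblast marker (vertical axis) in the 3 comparisons; circles are estimates, lines 95% confidence intervals from limma, and filled circles passed an adjusted p of 0.05. The filled circles are Mfap5 at -1.42 and Gsn at 1.37, both in the comparison of resection with vagotomy and sham.

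The markers did not move as 1 block. On standardised log2(FPKM + 1) profiles over the 9 libraries, Fap and Lum were the nearest pair, with a mean absolute distance of 0.164 SD, and Dcn and Lum came next at 0.468 SD. The farthest pairs were Fap and Gsn at 1.56 SD and Pdgfra and Mfap5 at 1.53 SD. Fap, Lum and Dcn are also close in transcript GC content, at 41.8%, 41.9% and 42.8%, and the 9 libraries behind these distances share depth and composition, so the distances are a description. The 5 other genes nearest to the mean profile of the markers were Gm13199, 2610524H06Rik, 2700062C07Rik, Rbm48 and Nit1, at 0.395 to 0.431 SD. Each of them was at its lowest in the third vagotomy library.

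Over all tested genes the change from sham to vagotomy followed transcript GC content. The median log2 change was -0.52 for genes of up to 40% GC, -0.29 from 40 to 45%, -0.08 from 45 to 50%, 0.15 from 50 to 55%, 0.38 from 55 to 60% and 0.45 above 60%. Dcn, with a change of -0.31 at 42.8% GC, Ddr2, with -0.08 at 45.1%, and Thy1, with 0.34 at 55.8%, lay near the median of genes of like GC content. Lum, Fap, Mfap5, Dpt and Meox1 lay below it and Gsn and Pdgfra above it. With the trend removed, 18.5% of all tested genes were called in this comparison, and among the markers Mfap5 alone. The part of GC content in the uncorrected values of single markers was not tested beyond this removal.

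**Figure D3:**
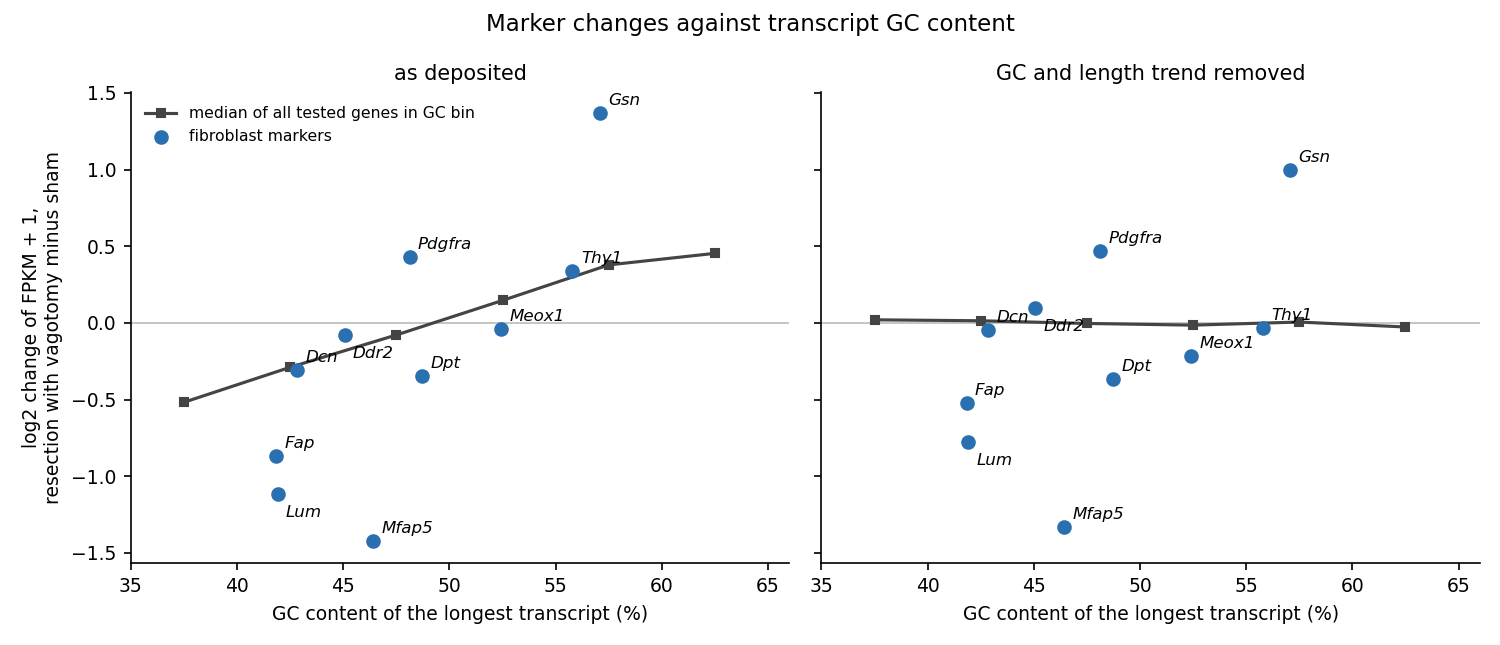
Log2 change from sham to resection with vagotomy (vertical axis) against GC content of the longest transcript in percent (horizontal axis), as deposited (left) and with the GC and length trend of each library removed (right); squares joined by a line are medians of all tested genes in GC bins, placed at bin centres with the open-ended bins at the edges, and circles are fibroblast markers. The medians run from -0.52 to 0.45 on the left and lie near 0 on the right, where Mfap5 is at -1.33 and Gsn at 1.00.

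Genes of activated fibroblasts were called in both directions between vagotomy and sham, groups that differ by resection as well as by vagotomy. Of 15 tested, 0 passed between resection and sham, 2 fell between vagotomy and resection, and 2 rose and 2 fell between vagotomy and sham. Of all tested genes 0.294%, 3.52% and 10.1% were called in these comparisons. With the GC trend removed, 102, 1525 and 2451 of all 13249 tested genes were called in them. The list then had 1 risen between resection and sham. It had 1 risen and 4 fallen between vagotomy and resection, and 3 risen and 2 fallen between vagotomy and sham. The additional falls were Lox, which crosslinks collagen (log2 change -0.98, adjusted p = 0.033), and Col12a1, a fibril-associated collagen (-1.29, adjusted p = 0.0431). The additional rises were Tagln against resection (1.01, adjusted p = 0.0217), Tnc in resection against sham, and Runx1, a transcription factor, in vagotomy against sham (0.86, adjusted p = 0.0454). Without that removal the list's median log2 change was 0.71, -0.24 and 0.23 in the 3 comparisons, beside -0.01, 0.02 and 0.03 for all tested genes. Postn was at 309.9 ± 41.2 FPKM in sham, 318.4 ± 107.5 after resection and 180.1 ± 74.9 after vagotomy. Every vagotomy library of Postn was below every sham library, as held for 17% of all tested genes. Acta2 was at 271.0 ± 38.4, 256.1 ± 46.9 and 395.1 ± 84.7 FPKM in the same groups, which overlapped. Neither Postn nor Acta2 passed in any comparison. Cthrc1, a secreted protein of collagen-producing fibroblasts, was at 21.8, 19.8 and 21.8 FPKM in sham, 51.5, 50.6 and 33.9 after resection, and 9.64, 8.49 and 2.11 after vagotomy. All resection libraries were above sham and all vagotomy libraries below it. Cthrc1 fell by 2.75 ± 0.42 on the log2 scale against resection (adjusted p = 0.0166) and by 1.70 ± 0.42 against sham (adjusted p = 0.034), while its change from sham to resection was 1.04 ± 0.42 (adjusted p = 0.699). The fall against sham was lost without any 1 sham library (highest adjusted p = 0.116), and that against resection without the second resection library or when only the 6 libraries compared were fitted (highest adjusted p = 0.077).

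Loxl2, which crosslinks collagen and elastin, was at 27.2, 19.3 and 28.6 FPKM in sham, 30.6, 36.7 and 11.2 after resection, and 3.17, 3.98 and 4.43 after vagotomy. Its vagotomy libraries were close together and far below all others. Loxl2 fell by 2.41 ± 0.39 on the log2 scale against sham (adjusted p = 0.0101), in all 19 settings. Against resection it fell by 2.34 ± 0.39 (adjusted p = 0.0214), in 15 of 19 settings, and was lost when only the 6 libraries compared were fitted and without resection library 2 or vagotomy library 1 or 3.

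Tagln, an actin-binding protein of smooth muscle and myofibroblasts, was at 10.5, 9.80 and 7.65 FPKM in sham, 25.6, 15.6 and 12.5 after resection, and 34.0, 36.3 and 48.7 after vagotomy. The groups did not overlap, and vagotomy was the highest. Tagln rose by 1.97 ± 0.29 on the log2 scale from sham to vagotomy (adjusted p = 0.00767), in all 19 settings. The mural cell list, which includes smooth muscle genes, had 0 of 8 past the threshold in any comparison, with sums of 204 to 244 FPKM in sham, 162 to 273 after resection and 206 to 235 after vagotomy. Its median log2 change from sham to vagotomy was 0.51, beside 0.03 for all tested genes. Within that list Cnn1, Myh11 and Cspg4 were higher in every vagotomy library than in any sham library, as were 19.7% of all tested genes. Cnn1 was at 4.13 ± 1.92 against 1.48 ± 0.576 FPKM, Myh11 at 3.09 ± 0.691 against 1.71 ± 0.835, and Cspg4 at 13.8 ± 1.53 against 7.53 ± 2.89. With the GC trend removed they did not pass (adjusted p = 0.186, 0.222 and 0.15). Pdgfrb and Notch3 had higher means but overlapped sham. Rgs5 at 55.5 ± 5.33 against 64.5 ± 15.7 FPKM and Abcc9 at 97.8 ± 14.4 against 101.9 ± 19.4 had lower means and also overlapped. Kcnj8, a potassium channel of pericytes, was lower, at 3.70 ± 0.760 against 7.45 ± 0.455 FPKM, and with the GC trend removed it passed (log2 change -1.08, adjusted p = 0.0227, and against resection -1.19, adjusted p = 0.0244). The part of mural cells in the Tagln values was not tested. Tnc, a matricellular protein of wounds, was at 7.05, 8.91 and 16.2 FPKM in sham, 39.1, 26.5 and 42.1 after resection, and 29.2, 29.3 and 31.2 after vagotomy. Both operated groups were above sham in every library. Tnc rose by 1.48 ± 0.31 on the log2 scale from sham to vagotomy (adjusted p = 0.021, in 15 of 19 settings, not without the second sham library or any 1 vagotomy library), and its change from sham to resection was 1.71 ± 0.31 (adjusted p = 0.0579, and 0.0382 with the GC trend removed).

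Of 9 fibrillar and associated collagens, 0 rose and 1 fell between vagotomy and sham, against 4.26% of all tested genes called lower. In the other comparisons 0 passed. With the GC trend removed 3 fell between vagotomy and sham, Col14a1, Col3a1 and Col5a1 (log2 change of Col5a1 -0.98, adjusted p = 0.0396), and 1 between vagotomy and resection, Col3a1 (-1.24, adjusted p = 0.0318). In that setting, chosen after seeing the data, 18.5% of all tested genes were called in either direction between vagotomy and sham. Between vagotomy and resection it called 1525 of 13249. Col14a1, a fibril-associated collagen, was at 68.8, 68.2 and 55.4 FPKM in sham, 42.7, 39.3 and 23.2 after resection, and 22.2, 27.7 and 13.5 after vagotomy. Resection libraries were all below sham, and vagotomy overlapped resection. Col14a1 fell by 1.61 ± 0.32 on the log2 scale from sham to vagotomy (adjusted p = 0.0182), though not without the second or the third sham library (highest adjusted p = 0.0895). Col3a1, a fibril-forming collagen, was at 705, 656 and 552 FPKM in sham, 580, 618 and 490 after resection, and 174, 252 and 432 after vagotomy (log2 change against sham -1.25 ± 0.35, adjusted p = 0.0503, and 0.0147 with the GC trend removed). Col1a2, a chain of type I collagen, had the opposite sign, with a log2 change of 1.28 ± 0.40 against sham (adjusted p = 0.068).

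Of 21 other genes of resident fibroblasts, 0 passed between resection and sham, and 1 rose in each vagotomy comparison. Of all tested genes 3.52% were called between vagotomy and resection and 10.1% between vagotomy and sham. Pcolce, which enhances the trimming of procollagen, was at 55.2, 25.3 and 25.6 FPKM in sham, 54.8, 24.1 and 20.98 after resection, and 241, 126 and 160 after vagotomy. Sham and resection overlapped, and every vagotomy library was above both. Pcolce rose by 2.33 ± 0.44 on the log2 scale against sham (adjusted p = 0.0145) and by 2.45 ± 0.44 against resection (adjusted p = 0.0241), and with the GC trend removed by 1.88 and 2.11. The former was lost without the second or the third sham library (highest adjusted p = 0.076), and the latter in 4 of 19 settings, without resection library 2 or vagotomy library 1 or 3 or when only the 6 libraries compared were fitted. Ly6a, a surface antigen of progenitor-like fibroblasts and of endothelial cells, was at 6.51, 8.75 and 13.3 FPKM in sham, 21.6, 21.9 and 24.7 after resection, and 9.61, 12.0 and 8.68 after vagotomy. Its resection libraries were the highest, and it passed the F-test over the 3 groups (adjusted p = 0.0402) but no single comparison (log2 change 1.22 from sham to resection and -1.11 from resection to vagotomy). Ly6a passed both with the GC trend removed, at 1.25 (adjusted p = 0.0291) and -1.08 (adjusted p = 0.0153). Over the list, the trend removal gave 1 rise between resection and sham, 1 rise and 1 fall between vagotomy and resection, and 2 rises between vagotomy and sham, with Htra3, a secreted serine protease, as the added one (log2 change 1.11, adjusted p = 0.0451). The removal called 102, 1525 and 2451 of all 13249 tested genes in these comparisons.

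**Figure D4:**
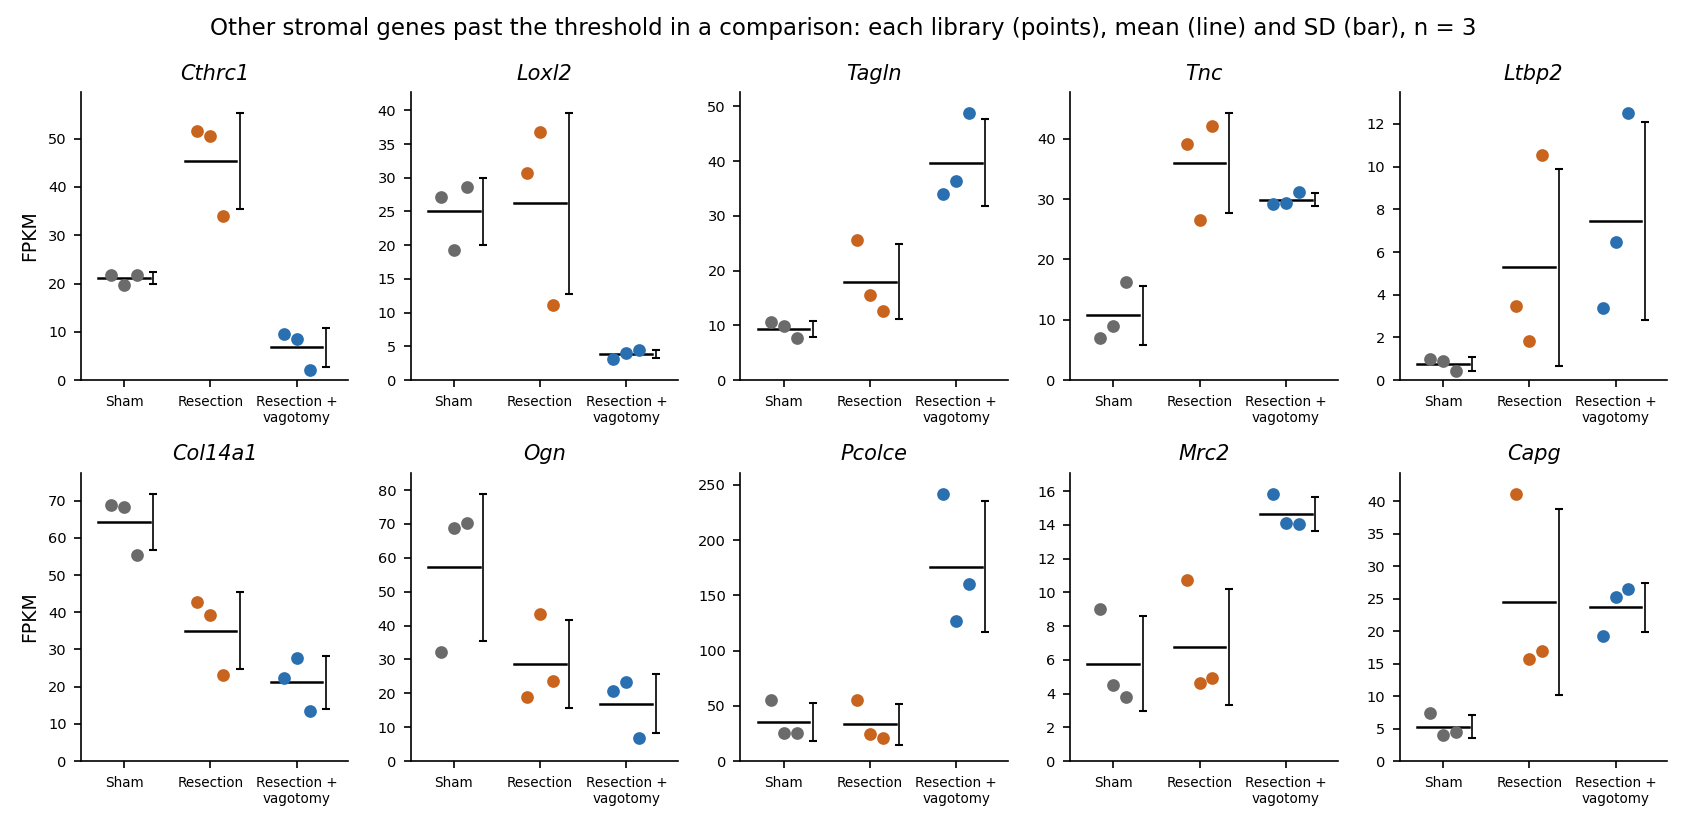
FPKM (vertical axes, each from 0) in each library of 10 other stromal genes past the threshold in a comparison; points are libraries, horizontal lines group means and bars 1 SD (n = 3). Cthrc1 and Loxl2 are lowest after vagotomy, at 2.11 to 9.64 and 3.17 to 4.43 FPKM, while Tagln and Pcolce are highest there, at 34.0 to 48.7 and 126 to 241 FPKM.

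Markers of other cells gave the setting for these values. Of all tested genes 0.294% were called between resection and sham, 3.52% between vagotomy and resection and 10.1% between vagotomy and sham. With the GC trend removed the calls were 102, 1525 and 2451 of 13249 genes. Endothelial markers had 1 of 8 called, Emcn, which fell by 1.58 on the log2 scale against sham (adjusted p = 0.0119), and their sum was 316 to 449 FPKM in sham, 365 to 459 after resection and 407 to 448 after vagotomy. Pecam1 also passed with the GC trend removed, higher after vagotomy than in sham (log2 change 0.62, adjusted p = 0.0352). Mesothelial markers, of the heart's outer lining, had 0 of 7 called, with sums of 57.6 to 67.3, 64.9 to 106 and 43.1 to 65.6 FPKM. Wt1, the epicardial transcription factor among them, was at 7.85 to 13.6 FPKM after vagotomy and at 15.4 or above in every other library, and it passed with the GC trend removed, at a log2 change of -0.89 against sham (adjusted p = 0.033) and -1.17 against resection (adjusted p = 0.0196). Upk1b, Krt19 and Msln had higher means after vagotomy than in sham, at 7.57, 12.1 and 5.05 against 2.93, 9.43 and 4.91 FPKM. Upk3b, Lrrn4 and Aldh1a2 had lower ones, at 2.81, 0.849 and 16.3 against 5.90, 3.35 and 20.8 FPKM. Apart from Wt1 no mesothelial marker passed, with or without the trend removed. Neutrophil markers summed to 17.9 to 40.9 FPKM in sham, 195 to 280 after resection and 106 to 300 after vagotomy, with 1 of 5 risen between resection and sham and 3 between vagotomy and sham, and 1 fallen between vagotomy and resection. The one that fell, S100a8, a calprotectin subunit, was at 164.9 ± 45.5 FPKM after resection and 42.8 ± 15.3 after vagotomy (adjusted p = 0.0344). The other subunit, S100a9, had the opposite direction, at 45.4 ± 19.5 FPKM after resection and 140.4 ± 82.6 after vagotomy. Retnlg also had a higher mean after vagotomy, at 25.99 against 8.64 FPKM. Csf3r at 4.41 against 5.43 FPKM and Cxcr2 at 2.28 against 3.14 had lower ones. Apart from S100a8 the groups overlapped, and no other neutrophil marker passed between vagotomy and resection. After removal of the GC trend, 2 neutrophil markers rose between resection and sham and 4 between vagotomy and sham, and macrophage markers had 3 of 10 risen between resection and sham in place of 2. Cardiomyocyte markers without Myh6 and Actc1 summed to 9256 to 13586 FPKM after resection and 18224 to 41129 after vagotomy, the highest in the third vagotomy library. Of that list 1 rose in each vagotomy comparison, Myl3, a myosin light chain, at 1211 ± 441 FPKM in sham, 898 ± 507 after resection and 7663 ± 2616 after vagotomy (adjusted p = 0.0144 against sham and 0.0166 against resection). Tnnt2, Tnni3 and Myh7 had higher means than sham but overlapped it, at 8679, 3948 and 525 against 2449, 2098 and 242 FPKM. Myl2 at 3772 ± 852 against 6184 ± 1372 FPKM was below sham in every library, as were 17% of all tested genes. Pln and Ryr2 had slightly lower means than sham and overlapped it. The median log2 change of the list, Myh6 and Actc1 included, was -0.0006 from sham to vagotomy. The part of these cells in the marker values was not tested.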

How the data were processed

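Total RNA of the ventricular apex was sequenced in 9 libraries, 3 per group, grouped by their titles. Per the submitters' processing notes, TopHat2 2.0.9, Cufflinks 2.1.1 and Cuffdiff 2.1.1 were used with GRCm38; the counting rules are not given in the sources used here. The authors deposited a gene matrix of FPKM to which 1 had been added, subtracted here, and Cuffdiff tables with p-values and q-values. Every listed gene exceeds 1 FPKM in at least 1 library. Depth is unknown, and no interval for counting error is given.

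The 10 markers were joined by identifier from the deposited tables. limma 3.58.1 (R 4.3.3, trended, two-sided) was fitted to log2(FPKM + 1) of all 9 libraries for the 13249 genes averaging 1 FPKM or more, with Benjamini-Hochberg adjustment over all of them and a threshold of 0.05. Tables were handled in Python 3.11.15. Tested on simulated data of 13249 genes, the fit recovered 70 of 100 genes changed by 2 on the log2 scale between vagotomy and sham. It recovered 14 of 100 changed by 1 and made 4 false calls. The simulated noise was independent between genes and libraries and held no GC trend, so the false calls do not give the error rate in these data. The changed genes were taken from the more abundant ones, so the recovery does not cover low markers such as Fap. They were also far fewer than the 1334 genes called between vagotomy and sham. The adjustment depends on that share, so the recovery in these data may differ. GC content and positions came from GENCODE M21, with GC known for 99.0% of tested genes, and promoters from RefSeq.

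Named genes were all markers; of each of 9 pathway lists, up to 3 genes with the smallest F-test p and any gene past the threshold; called or defining genes of 10 cell type lists; and the 5 genes nearest in profile, of which not all are described. The markers and lists were chosen with earlier results of these data known. T cell, neuron, Schwann cell and skeletal muscle lists had 0, 2, 1 and 2 genes in the matrix and 0 called.

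Deviations from group means of same-numbered libraries correlated at 0.199, 0.141 and 0.117 between vagotomy and resection. Each vagotomy library there matched the resection library of its own number best. No label gives a pairing, and the library names in the labels' descriptions number the third libraries differently. Whether the numbers mark a true pairing was not tested. Alternatives were pseudocounts of 0.1 and 5, no filter and a minimum mean of 5 FPKM, upper-quartile and quantile scaling, 6 libraries only, library weights, a replicate block, each library left out and Cuffdiff's q. Removal of the GC and length trend (loess, span 0.3) was chosen after seeing the data.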

Additional observations from a re-analysis of the deposited data

How the results depend on the processing

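Calls below refer to limma's adjusted p unless the authors' q is named. Of the member values under the alternatives, 538 kept their direction and side of the threshold, 10 lost a call, 6 gained one (Lum and Mfap5 between vagotomy and resection by the authors' q, the others by limma) and 33 changed sign, all 33 of them values that did not pass. Between vagotomy and resection the count of markers called was 0 by limma and 2 by the authors' q. Between vagotomy and sham it was 2, and became 1 with a pseudocount of 5, 1 with the GC and length trend removed, 4 with library weights and 4 with the replicate block, and ran from 0 to 2 with each library left out. By the F-test it was 1, 4 with library weights, and 0 to 1 with each library left out. Over all genes, calls between resection and sham were 39 and ran from 11 to 857 over the alternatives, between vagotomy and resection 466 and from 43 to 2406, between vagotomy and sham 1334 and from 83 to 5245, and by the F-test 781 and from 126 to 4111. With each library left out the 4 ranges were 11 to 66, 43 to 596, 83 to 1701 and 126 to 1091, with the lowest count between vagotomy and sham reached without the second sham library; fewer samples were fitted there.

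In 9 pairs of same-numbered libraries, correlations of deviations ran from -0.0193 to 0.498, and in 6 the best partner had the same number. In the comparisons with sham the same-numbered libraries were not all best partners. The highest correlation, 0.498, was between the first libraries of resection and sham. The replicate block gave 2413 called genes between vagotomy and sham and 55 between resection and sham. It changed no call of a marker other than Lum and Fap, which passed between vagotomy and sham.

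Signs of values that did not pass turned as follows. For Ddr2 from sham to resection, the log2 change became 0.013 with a pseudocount of 5, 0.021 with library weights, 0.12 with the GC trend removed and 0.072 in the authors' deposited table, and ran from -0.22 to 0.40 with each library left out. For Ddr2 after vagotomy it ran from -0.48 to 0.15 against resection and from -0.29 to 0.032 against sham with each library left out, and was 0.097 against sham with the GC trend removed. For Thy1 it ran from -0.56 to 0.20 between vagotomy and resection with each library left out, and was -0.034 between vagotomy and sham with the GC trend removed. For Dcn between vagotomy and resection it was 0.18 with library weights and 0.12 with the GC trend removed, and ran from -0.34 to 0.25 with each library left out; against sham that range was -0.52 to 0.068, the highest without vagotomy library 3. For Dpt between vagotomy and resection it was 0.37 with library weights, 0.0053 with the GC trend removed and 0.017 in the authors' deposited table, and ran from -0.24 to 0.32 with each library left out; against sham it was 0.020 with library weights. For Meox1 it was -0.014 from sham to resection with library weights, and ran from -0.15 to 0.11 from sham to vagotomy with each library left out. The cause was not tested.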
